A study of Mus musculus with 2 samples.

Results

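Germinal center B cells are antigen-activated B cells that divide and mutate their antibody genes in one zone of the germinal center, the dark zone, and compete for antigen and T cell help in the other, the light zone. Dark zone cells carry the chemokine receptor CXCR4 and are known for rapid division, so cells that carry the dark zone surface pattern without cycle transcripts are a minority state. In resting cells, the DREAM complex and other repressors hold down genes of DNA replication and mitosis, and many of the mitotic genes carry a short promoter element named CHR, often beside a CCAAT box.

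Low-cycling cells inside a dark zone gate are described here and set against cycling cells of the same gate. The mice were of the inbred strain C57BL/6J, 8 weeks old and immunized with SRBC (sheep red blood cells). RNA of their germinal center B cells, taken from spleen, was read by droplet sequencing as counts of unique molecular identifiers (UMIs, each standing for 1 captured RNA molecule). The cells had been sorted, and all of them belonged to 1 group with no treatment or genotype contrast, held in 2 libraries called library 1 and library 2. Separate animals behind the libraries are not stated in the labels, and every p-value below covers only the spread between these libraries, which may be technical. A total of 75121538 and 61874342 UMIs had been deposited, over 8765 and 7868 barcodes.

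Members were chosen by measured UMI counts. Limits of 500 or more genes, 2000 or more UMIs and a mitochondrial share of 25% or less kept 6567 and 4851 barcodes. The dark zone gate asked for 1 or more Cxcr4 UMIs without any from Cd83 and Cd86, whose proteins mark the light zone, and held 1054 and 753 of these barcodes. A cell was called low-cycling when Mki67, Top2a, Cdc6, Mcm6, Ccne2 and Cdc20 together gave at most 1 UMI, and cycling when they gave at least 5. That left 86 low-cycling cells in library 1 and 70 in library 2, against 858 and 614 cycling cells, with 110 and 69 cells between the limits. Low-cycling cells thus made up 8.16% (exact 95% interval 6.58% to 9.98%) and 9.30% (7.32% to 11.6%) of the dark zone gate. Intervals cover counting error only. None of the 9 genes of the gate enters a result below.

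The gate reads RNA and not protein, and it rests on few molecules. Exactly 1 Cxcr4 UMI was found in 64 of 86 and 45 of 70 low-cycling cells, and in 462 of 858 and 333 of 614 cycling cells. The cycle sum was 0 in 42 and 40 low-cycling cells and 1 in the other 44 and 30. Depth differed as well: median UMIs were 3475.5 and 3409 in low-cycling cells, against 8162.5 and 7477 in cycling cells. Cells were therefore matched on total UMIs within each library, which left 76 and 66 cells of each class. Matched medians were 3630.5 against 3747 UMIs in library 1 and 3512.5 against 3459.5 in library 2, so the cycling cells compared are the shallow ones of their class. Between the deposited libraries 22 barcodes were shared, 1 of them among the cells of these classes.

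Markers of germinal center B cells were read first. All 10 germinal center B cell markers were found in each class of each library, at a summed level of 2140 and 2241 CPM (counts scaled to the total UMIs) in low-cycling cells against 2387 and 2262 CPM in cycling cells. Limits on single cells, at least 3 UMIs over a short list of germinal center markers and at most 1 over a short list of naive or exit markers, were met by 49 of 86 and 52 of 70 low-cycling cells against 679 of 858 and 499 of 614 cycling cells, which were deeper. Naive or follicular B cell markers came to 656 and 716 CPM against 492 and 523 CPM, and 2 of their 5 tested genes, Fcer2a and Fcmr, were called higher. Memory B cell markers came to 75.2 and 74.7 CPM against 43.5 and 47.5 CPM, and plasmablast markers to 1012 and 1168 CPM against 760 and 907 CPM, with Prdm1, the regulator of plasma cell fate, at 0 in every sum. No T cell marker of the 11 had a count in low-cycling cells. Of 10 macrophage markers only Cd68 was found, with 1 and 2 counts. Erythroid markers gave 14 and 11 counts in low-cycling cells against 4 and 3 in cycling cells. Marginal zone B cell markers came to 479 and 692 CPM against 382 and 420 CPM. Most of this lay in Mzb1, also a plasmablast marker, with 83 and 125 counts against 49 and 64. Cr2 and Dtx1 were lower in library 1 (35 against 40 and 18 against 22 counts). In library 2 they were higher (29 against 24 and 17 against 14). The memory, naive, marginal zone, plasmablast and erythroid sums were higher in low-cycling cells of both libraries, and their part in the results below was not tested. Median mitochondrial shares were 18.0% and 19.2% in low-cycling cells against 19.04% and 20.2% in cycling cells.

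Cycle genes that the gate did not read followed the split. Of 2000 UMIs drawn from each matched cell, 90 other cycle genes held a median of 4 (1 to 13) in low-cycling cells of library 1 and 4.5 (0 to 18) in library 2. In cycling cells the medians were 20.5 (2 to 51) and 17.5 (3 to 52). The classes overlapped, so a low sum does not mark every cell as out of the cycle. These genes are transcribed with the 6 genes of the gate, and their difference is a description of the split.

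**Figure D1:**
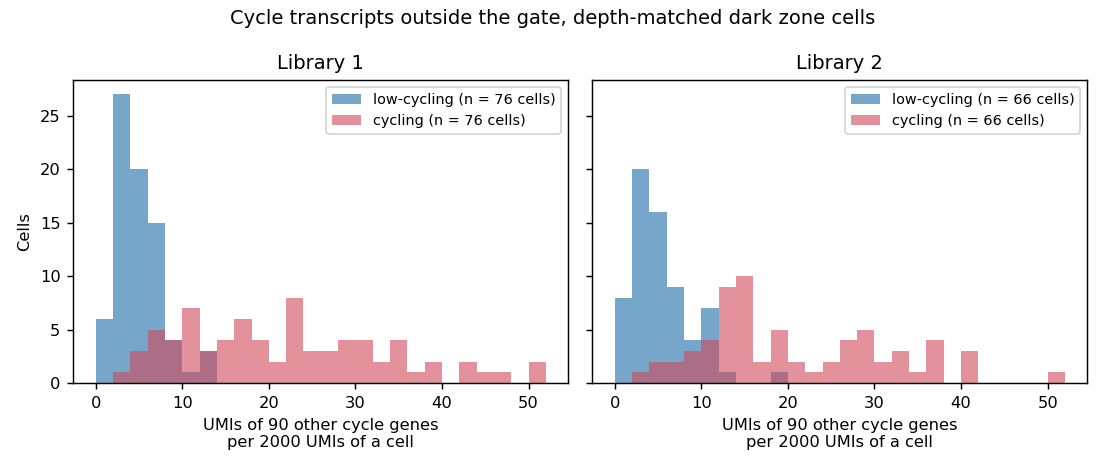
Histograms of UMIs from 90 cycle genes outside the gate (x axis, per 2000 UMIs of a cell) by number of cells (y axis), with low-cycling cells in blue and cycling cells in red, 1 panel per library. Low-cycling cells gather below 14 UMIs in library 1 and reach 18 in library 2, whereas cycling cells spread up to 51 and 52.

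Mitotic genes marked the split most sharply. Kif4, a motor that binds chromosomes, had 0 counts in the low-cycling cells of both libraries and 38 and 27 counts in cycling cells, which makes it at least 21.5-fold lower against a floor of 3 counts over the group. Dlgap5, a spindle gene, had 0 counts against 26 and 19 (at least 14.9-fold lower). Sgol2a, which protects the cohesion of sister chromosomes, had 0 against 24 and 16, and the formin gene Diaph3 0 against 20 and 10. No UMI of these 4 genes was captured in the 76 and 66 matched low-cycling cells. In the draw of 4 classes described below, Kif4 had 1 low-cycling count against 30 and 22, so its bound depends on the draw, and the other 3 genes were at 0 there too.

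Spindle genes with a few low-cycling counts gave measurable ratios. Kif11, the motor that pushes spindle poles apart, had 3 and 2 counts in low-cycling cells against 52 and 51 in cycling cells, 20.4 times as many per UMI (exact 95% interval 8.48 to 64.3). Hmmr, a spindle assembly gene, had 4 and 2 against 64 and 50 counts, a ratio of 18.9 (8.40 to 52.5). Aspm, a spindle pole gene, had 2 and 1 against 46 and 48 counts, a ratio of 31.1 (10.3 to 153). Cdca2, Ncapd3, Spag5, Ckap2l, Kif22 and Ndc80 had 1 count each over both libraries against 37 to 56. Kif15 and Bub1b had 3 and 2 counts against 78 and 50. No library of cycling cells overlapped with a library of low-cycling cells for any of these genes. They were named for the largest differences with the same sign in both libraries, which makes such separation likely.

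Promoters of 4 of these genes that carry both elements named above are printed to show them, since the mitotic genes moved together across the split. They do not stand for all named genes. Each runs from 100 bases before to 30 bases after the start site, 5′ to 3′ on the strand of the gene. Capitals mark the CHR letters (TTTGAA or its reverse complement TTCAAA) and the CCAAT letters (or their reverse complement ATTGG), and the sequences are those of RefSeq on GRCm38.p6. Kif4 is read from chrX:100625965-100626094 on the plus strand, Ckap2l from chr2:129297183-129297312 on the minus strand, Kif11 from chr19:37376282-37376411 on the plus strand and Hmmr from chr11:40733408-40733537 on the minus strand.
Kif4: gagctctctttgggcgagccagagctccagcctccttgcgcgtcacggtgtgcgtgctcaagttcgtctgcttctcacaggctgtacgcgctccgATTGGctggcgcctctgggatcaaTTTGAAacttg
Ckap2l: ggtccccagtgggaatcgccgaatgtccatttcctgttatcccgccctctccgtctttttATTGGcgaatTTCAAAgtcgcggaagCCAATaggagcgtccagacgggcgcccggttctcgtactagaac
Kif11: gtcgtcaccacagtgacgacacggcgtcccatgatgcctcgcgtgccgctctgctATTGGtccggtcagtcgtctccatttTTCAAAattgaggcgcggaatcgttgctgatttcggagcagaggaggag
Hmmr: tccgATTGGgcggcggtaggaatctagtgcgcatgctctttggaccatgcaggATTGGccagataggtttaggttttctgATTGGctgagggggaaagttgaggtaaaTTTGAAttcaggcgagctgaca

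Both letter groups lay within a short distance of each other and of the start site in these windows. Other named genes differed: Diaph3 had no CHR letters, Ndc80 and Kif15 had no CCAAT letters, and a window of Ncapd3 had neither. Both groups were found in 16 of the 26 mitosis genes with a window (61.5%), against 7.72% of tested genes. In Kif11 the CCAAT letters began 45 bases and the CHR letters 19 bases before the start, and in Ckap2l they began 40 and 30 bases before it. CHR letters (TTTGAA or TTCGAA, both strands) were found in 19 of the 26 mitosis genes with a window in the table (73.1%), against 17.8% of all 3318 tested genes with a window and 19.2% of all 32851 windows of 250 bases before to 50 bases after a start. CCAAT letters (both strands) were found in 20 of 26 (76.9%), against 42.9% of tested genes and 37.4% of all windows. Replication genes shared the CCAAT letters, found in 15 of 21 (71.4%), but differed in the other letters. CHR letters were found in 4 of these 21. The E2F letters TTTGGCGC or TTTCCCGC were found in 8 of the 21 (38.1%). They were found in 0 of the 26 mitosis genes and in 4.64% of tested genes. A match of letters is a description and not a binding site. Dlgap5, Sgol2a and Cdca2 had no window.

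Of the mitosis list, a set of 37 genes of chromosome segregation and cytokinesis, 30 were frequent enough to test. Their median log2 difference was −3.28, against 0.01 over all 4127 genes tested. By edgeR's quasi-likelihood test at an adjusted p below 0.05, all 30 were called lower, against 6.32% of all tested genes. The gate reads genes transcribed with this list, so this direction is a description of the split. Some of the 30 were frequent enough only in cycling cells, such as Nuf2 with 2 low-cycling counts against 33. Among the untested genes, Pttg1 did not differ, with 12 counts against 12. With no filter on low counts, 34 of the 37 genes were called lower. Summed, the list held 742 and 936 CPM in low-cycling cells against 6184 and 6018 CPM in cycling cells. Foxm1, a transcription factor of late cycle genes, had 1 count against 27. Ube2c, which marks mitotic proteins for destruction, kept more of its level at 27 and 31 counts against 94 and 62. Cenpe, a kinetochore motor, had 29 and 30 counts against 345 and 240.

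Replication genes were lower by less. Of 33 G1/S and replication genes 25 were tested, 13 were called lower and 0 higher, with a median of −1.22. Clspn, which relays replication stress, stood at 20.5 and 19.7 CPM against 171 and 186 CPM. Pcna, the sliding clamp of DNA polymerases, stood at 54.7 and 47.2 against 137 and 170 CPM. Some licensing genes differed less, such as Mcm3 with 21 and 27 counts against 34 and 30 and Cdt1 with 12 and 11 against 15 and 12. Of 10 tested replication-dependent histone genes 9 were called lower, and Hist1h1b, a linker histone, stood at 6.84 and 43.2 against 278 and 277 CPM. These histone genes are near-identical copies of one another, and their messages largely lack the poly(A) tail that 3′ capture needs, so single members are uncertain. In nucleotide synthesis 3 of 8 tested genes were called lower, among them Rrm1 and Rrm2, subunits of ribonucleotide reductase.

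Tubulin and chromatin packing genes, which are abundant, gave the firmest values. Of 18 tested, 17 were called lower, with a median of −1.36. Tuba1b, an alpha tubulin, stood at 167 and 169 CPM against 850 and 1034 CPM. Hmgb2, a chromatin protein of dividing cells, stood at 622 and 696 against 2206 and 2246 CPM. Stmn1, which destabilizes microtubules, stood at 130 and 157 against 445 and 384 CPM. Both libraries of low-cycling cells lay below both libraries of cycling cells for each of these genes. These examples were taken from the 17 called lower, where such separation is likely.

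**Figure D2:**
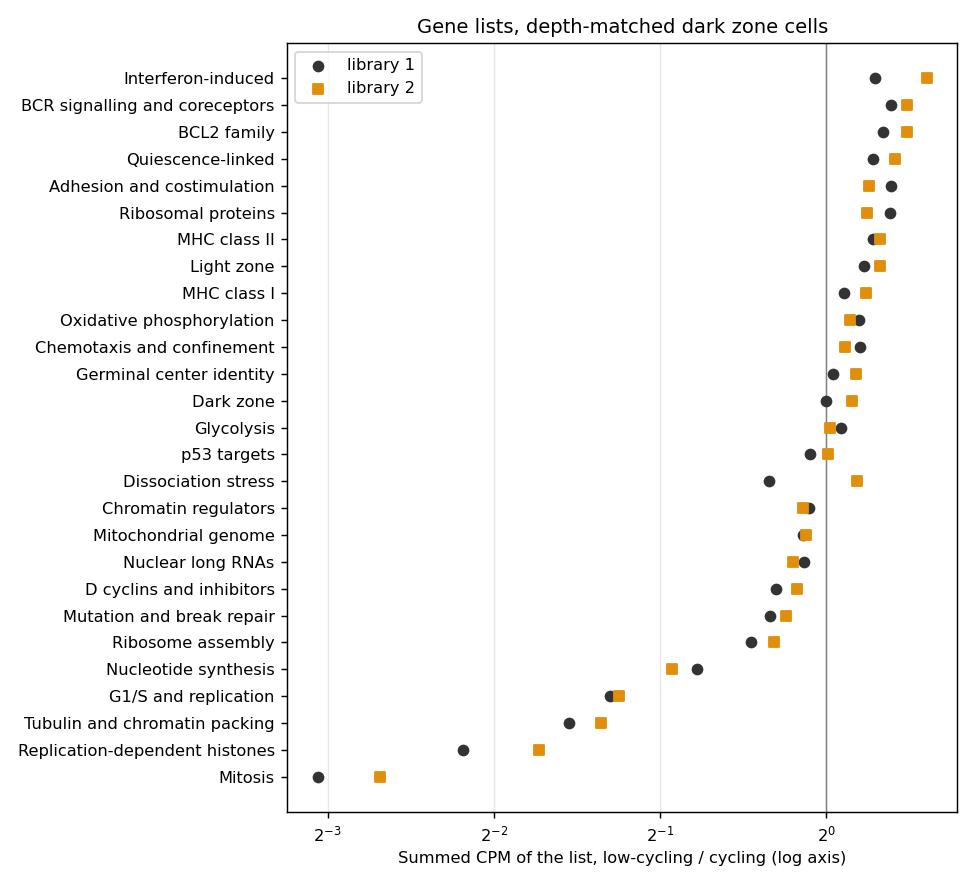
Ratio of the summed CPM of each gene list in low-cycling over cycling cells (x axis, log scale) for the 27 lists (y axis), with a circle for library 1 and a square for library 2. The mitosis list lies at 0.120 and 0.155, the replication lists between 0.220 and 0.585, and the lists of the B cell receptor and of MHC class II between 1.22 and 1.40.

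D cyclins, their partner kinases and their inhibitors were mostly too rare to test. Of 20 D cyclins, partners and inhibitors 7 were tested, and only Cdk6, a D cyclin kinase, was called, lower at 23.9 and 11.8 against 56.9 and 63.4 CPM. Ccnd3, the D cyclin of dark zone cells, stood at 297 and 315 CPM against 238 and 230 CPM, which did not pass the test (edgeR adjusted p = 0.128). Cdkn1b, which encodes the inhibitor p27, was too low to test at 23.9 and 35.4 against 16.7 and 19.8 CPM.

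Cd2 and Ypel3, the genes that marked these cells when the class was proposed, were higher in low-cycling cells, and they are given as a description with no test because they were picked with these data known. Cd2 (ENSMUSG00000027863, chromosome 3, 101275899 to 101287939 on mm10), an adhesion receptor of lymphocytes, stood at 154 and 138 CPM in low-cycling cells and at 46.9 and 43.6 CPM in cycling cells. Its log2 difference was 1.72 ± 0.33 (SE). Ypel3 (ENSMUSG00000042675, chromosome 7, 126776955 to 126780514), a gene linked to growth arrest, stood at 133 and 173 against 80.3 and 103 CPM, a log2 difference of 0.78 ± 0.28. Neither gene's libraries overlapped between the classes. The Cd2 difference was 1.34 with every cell thinned to 2000 UMIs and 2.01 among cells with at least 4000 UMIs.

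Over all genes, the test called changes in both directions. Of the 4127 genes tested, 472 were called (11.4%), 211 higher (5.11%) and 261 lower, and all 472 had the same sign in both libraries. With 2 libraries the call rests on a spread shared across genes, and DESeq2 called 92 of the 472, 36 of them higher. Simulated counts gave edgeR calls for 64% of genes changed by 1 and 95% of those changed by 2 on the log2 scale. Only more abundant genes were changed there, and all genes were drawn with the same fixed spread. These shares may therefore be too high for rarer genes. Without depth matching 2233 genes were called. Asking for 2 or more Cxcr4 UMIs left 19 and 23 cells a class and 5 calls, all lower. By DESeq2 the lists below kept 1 quiescence-linked, 2 B cell receptor, 2 MHC class II, 9 ribosomal protein and 0 adhesion genes called higher, and 17 mitosis genes called lower. It called 0 genes of the dark zone, light zone, germinal center identity, chemotaxis, BCL2 and oxidative phosphorylation lists.

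Pon2, Rabac1 and Myl12b had the largest log2 increases. Pon2 (ENSMUSG00000032667, chromosome 6, 5264147 to 5298455), a lactonase, stood at 99.1 and 106 CPM against 20.1 and 19.8 CPM (log2 difference 2.37 ± 0.42, edgeR adjusted p = 8.23e-07). Rabac1 (ENSMUSG00000003380, chromosome 7, 24969752 to 24972754), which binds Rab GTPases, stood at 75.2 and 62.9 against 20.1 and 3.96 CPM (2.47 ± 0.56, edgeR adjusted p = 0.000252). Myl12b, a myosin light chain, stood at 68.4 and 78.6 against 10.0 and 19.8 CPM (2.34 ± 0.53). No low-cycling cell held more than 3 UMIs of any of these genes. The sizes depended on which cycling cells were drawn: another draw gave 1.64 for Pon2, 1.38 for Rabac1 and 0.998 for Myl12b, which lost its call, and the draw of 4 classes gave 1.29 ± 0.35 for Pon2.

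Slfn2, Tnfaip8l2, Ncf1 and Trpv2 were also among the 15 genes named for the largest increases. Slfn2 (ENSMUSG00000072620, chromosome 11, 83065112 to 83070678), whose loss ends the quiescence of resting lymphocytes, stood at 198 and 134 CPM against 53.6 and 67.4 CPM (1.52 ± 0.30, edgeR adjusted p = 1.18e-05). Tnfaip8l2, which restrains antigen receptor signalling, stood at 137 and 106 against 43.5 and 55.5 CPM (1.35 ± 0.33). Ncf1, a subunit of the NADPH oxidase, stood at 109 and 82.6 against 50.2 and 27.7 CPM. Trpv2, a cation channel, stood at 82.0 and 90.4 against 40.2 and 19.8 CPM and lost its call in another draw, at a log2 difference of 0.95. Every low-cycling value in this group lay above every cycling value of the same gene. Choice by size and by a shared sign in both libraries makes this likely.

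The other genes of the 15 included Ly6d, Selenop, Atp6v0e, Esd and Rala. Ly6d, a lymphocyte surface protein, stood at 71.8 and 291 CPM against 43.5 and 43.6 CPM, and 27 of its 74 counts in library 2 came from 1 cell. Its log2 difference was 0.75 in library 1 alone and 2.76 in library 2 alone. Selenop, a selenium carrier, stood at 88.9 and 59.0 against 33.5 and 23.8 CPM, and Atp6v0e, a proton pump subunit, at 54.7 and 74.7 against 10.0 and 39.6 CPM. Esd, an esterase, stood at 103 and 153 against 46.9 and 51.5 CPM. Rala, a small GTPase, stood at 51.3 and 94.4 against 26.8 and 31.7 CPM. In another draw of matched cells Selenop, Atp6v0e and Rala lost their calls, with log2 differences of 0.91, 0.84 and 0.69. Without depth matching Atp6v0e turned to −0.33 and Rala to −0.0035, and with a cycle sum of 0 against at least 10 Selenop turned to −0.033. Wdr33 and Mien1, at up to 78.6 CPM, complete the 15 with Cd2, and both lost their calls in another draw (log2 differences of 1.10 and 0.71).

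**Figure D3:**
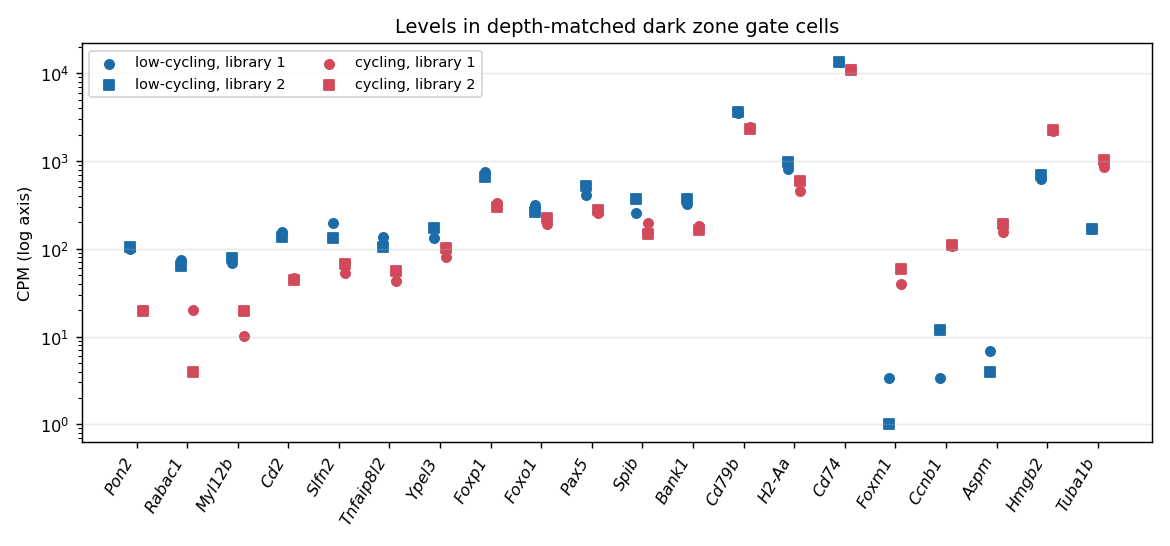
CPM (y axis, log scale) of 20 genes in depth-matched low-cycling (blue) and cycling (red) dark zone gate cells, with circles for library 1 and squares for library 2. A value of 0 is drawn at 1, as for Foxm1 in library 2. For Cd2 the low-cycling values of 154 and 138 lie above the cycling values of 46.9 and 43.6, and for Aspm the order is turned.

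Among quiescence-linked genes other than Ypel3, 4 of 19 tested were called higher and 0 lower, with a median of 0.25. The share called higher over all genes tested was 5.11%. Foxp1, a transcription factor that keeps B cells resting, stood at 759 and 657 CPM against 335 and 297 CPM (log2 difference 1.21 ± 0.14, edgeR adjusted p = 9.18e-15). Mxd4, a partner of MAX that opposes MYC, stood at 171 and 153 against 93.7 and 99.0 CPM. Bcl11a, a lymphoid transcription factor, stood at 396 and 397 against 335 and 238 CPM. Antiproliferative Btg1 (509 and 480 against 435 and 511 CPM) and Btg2 (352 and 436 against 385 and 368 CPM) had overlapping libraries and did not pass the test. Klf2, a quiescence factor, stood at 44.4 and 62.9 against 43.5 and 43.6 CPM and did not pass either.

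B cell receptor and coreceptor genes were higher in part. Of 21 tested, 5 were called higher (5.11% over all genes tested) and 0 lower, with a median of 0.40. Cd79b, a signalling chain of the receptor, stood at 3531 and 3637 CPM against 2444 and 2318 CPM (0.63 ± 0.08, edgeR adjusted p = 4.69e-12), and its partner Cd79a at 1815 and 2084 against 1312 and 1311 CPM. Bank1, a scaffold of receptor signalling, stood at 328 and 370 against 184 and 162 CPM. The kinase genes Lyn (226 and 208 against 151 and 135 CPM) and Syk (571 and 432 against 445 and 337 CPM) were called as well, and for Syk the libraries overlapped. Cd22, an inhibitory coreceptor, had a log2 difference of 0.43 and did not pass the test (edgeR adjusted p = 0.0641).

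Antigen presentation genes followed the same direction. Of 11 MHC class II genes 4 were called higher (5.11% over all genes tested) and 0 lower, with a median of 0.28. H2-Aa stood at 810 and 983 CPM against 452 and 586 CPM (0.83 ± 0.13, edgeR adjusted p = 4.19e-09). Cd74, the chaperone of class II, stood at 13615 and 13529 against 11115 and 10824 CPM, a log2 difference of 0.35 ± 0.07. Of 13 class I genes only H2-D1 was called, higher at 626 and 794 against 516 and 582 CPM, which is near the share over all genes. Class I and class II genes are families with similar sequences, and how reads shared between members were counted is not given in the sources used here.

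Adhesion and migration genes were called in small numbers. Of 17 adhesion and costimulation genes other than Cd2, 5 were called higher and 1 lower, against 5.11% and 6.32% over all genes tested. The surface genes Cd52 (892 and 731 against 569 and 479 CPM) and Cd37 (1337 and 1187 against 817 and 879.5 CPM) were higher. Cd81, a tetraspanin, stood at 140 and 146 against 56.9 and 71.3 CPM. Cd24a, a surface glycoprotein, was lower at 602 and 464 against 763 and 729 CPM. Of 14 chemotaxis and confinement genes Rgs19 and Rac2 were called higher. Cxcr5, the receptor that draws B cells to follicles, stood at 137 and 134 against 100 and 79.2 CPM and did not pass the test.

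Dark zone and germinal center regulators showed few calls. Foxo1, the transcription factor of the dark zone program, stood at 314 and 260 CPM against 191 and 222 CPM (0.53 ± 0.19, edgeR adjusted p = 0.0479). Its size depended on the draw: in the draw of classes from both zone gates described below, the Foxo1 difference was 0.36 ± 0.20, with 0.60 and 0.083 by library. Foxo1 was 1 of 3 called higher among 12 tested dark zone genes, with Pafah1b3 and Selenop (5.11% over all genes tested). The median over this list was 0.22. Light zone genes leaned the same way: 8 of 9 tested had a positive difference, with a median of 0.42. Of these 9 only Fcer2a was called higher, and 0 were called lower. Bcl6, the repressor that germinal centers need, stood at 157 and 181 against 181 and 186 CPM. The B cell factors Pax5 (410 and 519 against 254 and 277 CPM) and Spib (253 and 370 against 198 and 147 CPM) were called higher among 17 germinal center identity genes, whereas Nuggc was called lower at 171 and 157 against 241 and 273 CPM. For Pax5 the log2 difference was 0.84 ± 0.16.

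Few survival, repair and metabolic genes were called, to be read against 5.11% called higher and 6.32% lower over all genes tested. The pro-death gene Bcl2l11 stood at 106 and 59.0 against 36.8 and 43.6 CPM and the survival gene Mcl1 at 332 and 460 against 301 and 281 CPM, both called higher of 6 tested. In another draw of matched cells, with DESeq2 and with no replicate block, 0 genes of this family were called. In the draw of 4 classes described below, the Bcl2l11 difference was 0.11 ± 0.33, with 0.41 in library 1 and −0.32 in library 2. Of 6 tested p53 targets 0 were called. In mutation and break repair only Rif1 was called of 11, lower at 181 and 138 against 298 and 254 CPM. Of 19 nuclear oxidative phosphorylation genes 2 were called higher (0 in another draw of cells), and of the 13 genes of the mitochondrial genome 0 were called. The maintenance methylase Dnmt1 stood at 95.7 and 134 against 261 and 230 CPM, 1 of 3 called lower among 15 chromatin regulators.

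Most ribosomal protein genes were called higher at matched depth, against 5.11% over all genes tested. Of 30 ribosomal protein genes 26 were called higher and 0 lower, with a median of 0.38 and a summed level of 84773 and 82917 CPM against 64929 and 69934 CPM. Of 13 ribosome assembly genes 2 were called lower and 0 higher, with a median of −0.34. Ncl, nucleolin, stood at 479 and 480 against 710 and 903 CPM (−0.70 ± 0.13, edgeR adjusted p = 3.94e-06). Without depth matching, 23 ribosomal protein genes were called lower and 1 higher, with a median of −0.31, so the direction of this list depends on the matching. With no replicate block 8 were called higher, and with a mitochondrial limit of 20% 10 were. The oxidative phosphorylation list turned in the same way, from a median of 0.22 to −0.67. Ribosomal protein genes have many processed copies in the genome, which makes single members uncertain.

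Across all 1054 and 753 cells of the gate, with each cell thinned to 2000 UMIs, levels were read along the cycle sum. The cells' own depth rose along it, from medians of 3564.5 and 3609 UMIs at a sum of 0 to 10014 and 9412 UMIs at 20 or more, and its part in these levels was not tested. Cd74 stood at 14071 and 13862 CPM at a sum of 0 and at 7718 and 7930 CPM at 20 or more. Cd79b stood at 3262 and 4225 CPM at a sum of 0 and at 1586 and 1594 CPM at 20 or more. Foxp1 stood at 929 and 612 CPM at a sum of 0 and at 260 and 208 CPM at 20 or more. These genes were lowest where the cycle sum was highest, in both libraries.

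Cd2 was read around both limits. It stood at 95.2 and 100 CPM at a sum of 0, at 216 and 150 CPM at a sum of 1, just inside the limit, and at 118 and 92.6 CPM at a sum of 2, just outside it. At a sum of 4, just below the other limit, it stood at 15.6 and 55.6 CPM, and at a sum of 5 at 41.7 and 31.2 CPM. Each of these steps holds only 16 to 44 cells, so few UMIs set its value. The 90 other cycle genes had medians of 3 and 4 UMIs at a sum of 0, 5 and 5 at 1, 4 and 4 at 2, and 26 and 25 at 20 or more. The cells between the limits resembled the low-cycling cells more than the cycling cells in this measure, with medians of 6 and 6 against 22 and 22.

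**Figure D4:**
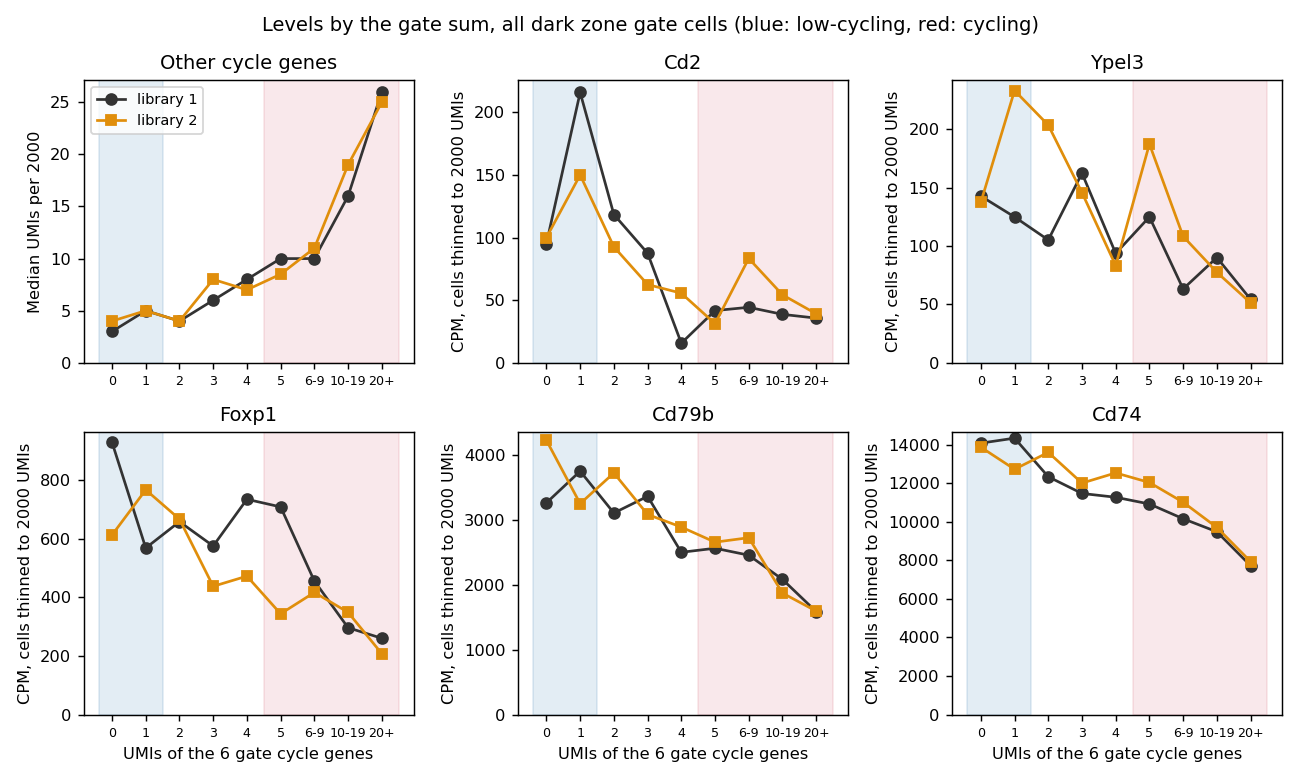
Median UMIs of 90 other cycle genes per 2000 UMIs, and CPM of Cd2, Ypel3, Foxp1, Cd79b and Cd74 from cells thinned to 2000 UMIs (y axes), by the summed UMIs of the 6 cycle genes of the gate (x axis), for library 1 (circles) and library 2 (squares), with the low-cycling range shaded blue and the cycling range red. Cd74 goes from 14071 and 13862 CPM at a sum of 0 to 7718 and 7930 CPM at 20 or more, while Cd2 is highest at a sum of 1.

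Whether the same difference occurred outside the dark zone gate was asked in light zone gate cells, which had no Cxcr4 UMI and at least 1 UMI of Cd83 or Cd86. Low-cycling cells were more frequent there: at matched depth they made up 18.9% (16.6% to 21.4%) and 16.5% (13.9% to 19.3%) of light zone gate cells, and the intervals lie above those of the dark zone gate in both libraries. The 4 classes were then drawn to 74 and 65 cells each. Of 4707 genes tested for an interaction of class and zone gate, 0 were called by edgeR (0.0%), with 252 at an unadjusted p below 0.05, and DESeq2 called 0, with 15. In simulated counts, again changed in more abundant genes only, this test called 73% of genes with a log2 interaction of 2. It called 19% of those with 1, so smaller differences between the zones could not be read.

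Side by side, the named and called genes had like directions in both gates. Of 163 such genes 162 had the same sign, and the exception was Cdk6. Among all 4707 genes the share was 67.4%, but these include genes with differences near 0, so the shares are not alike. The 73 with a positive difference in the dark zone gate all had a positive one in the light zone gate. Among all genes positive in the dark zone gate that share was 69.7%. Some of the light zone differences were near 0, with opposite signs in the 2 libraries, such as 0.0057 ± 0.49 for Wdr33 and 0.084 ± 0.64 for Selenop. The 73 include the 26 called ribosomal protein genes, a list whose direction depended on the matching. Cd2 differed by 1.74 ± 0.33 in the dark zone gate and 2.12 ± 0.44 in the light zone gate, with a difference of −0.38 ± 0.58 between them. Foxp1 differed by 0.88 ± 0.15 and 0.89 ± 0.17. Slfn2 differed by 1.66 ± 0.31 and 0.69 ± 0.28, and Myl12b by 1.73 ± 0.48 and 0.27 ± 0.46, without passing the test of the difference (edgeR adjusted p = 0.921 for both). For the cycle genes this direction was fixed by the gate in both zones.

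**Figure D5:**
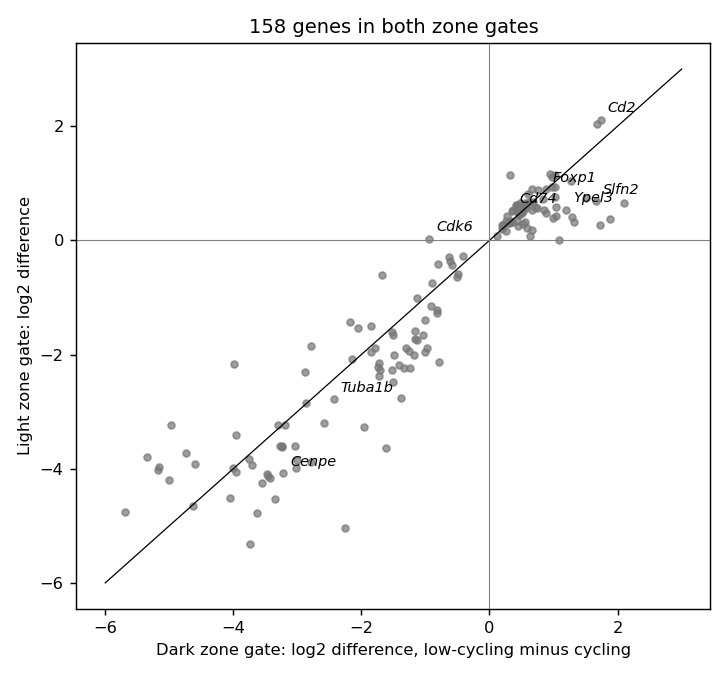
Log2 difference between low-cycling and cycling cells in the light zone gate (y axis) against the dark zone gate (x axis), 1 point per gene, for the 158 named or called genes with a count in every class, and the line of equal values. Points lie in the lower left and upper right, with Cdk6 (−0.94 and 0.03) as the exception.

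Low-cycling cells of the 2 gates still differed from each other. Of 4707 genes 101 were called (2.15%), 37 higher (0.786%) and 64 lower (1.36%) in the dark zone gate. Of 12 tested dark zone genes 5 were higher and 0 lower, with a median of 0.75 against 0.00 over all genes. The gates were set by Cxcr4, Cd83 and Cd86, so the direction of zone genes is a description of that choice. Gcsam, which restrains the migration of germinal center B cells, stood at 142 and 111 CPM in low-cycling dark zone cells and 37.8 and 32.0 CPM in low-cycling light zone cells (1.83 ± 0.36, edgeR adjusted p = 8.82e-05). Pafah1b3, a lipid hydrolase subunit, stood at 270 and 413 against 89.4 and 184 CPM. Lmo4, a transcription cofactor, stood at 146 and 147 against 58.5 and 56.0 CPM.

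A pair of mitotic genes differed between the low-cycling cells of the gates. Ube2c stood at 97.0 and 123 CPM in low-cycling dark zone cells against 44.7 and 16.0 CPM in low-cycling light zone cells, and Cenpe at 90.1 and 119 against 41.3 and 28.0 CPM. Both were called higher, 2 of the 34 mitosis genes tested, with a median of 0.61 over the list. For comparison, cycling dark zone cells held 986 and 1019 CPM of Cenpe.

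Light zone and presentation genes were lower in low-cycling dark zone cells. Of 14 tested light zone genes 6 were called lower and 0 higher, which again describes the choice of gates. Il4i1, an amino acid oxidase, stood at 31.2 and 63.5 CPM against 162 and 464 CPM (−2.70 ± 0.29, edgeR adjusted p = 2.19e-17). Bcl2a1b, a survival gene with near-identical neighbors, stood at 10.4 and 19.9 against 58.5 and 164 CPM, and Fcer2a, the low-affinity IgE receptor, at 208 and 135 against 461 and 492 CPM. Of 12 MHC class II genes 6 were lower and 0 higher. Marcksl1, a cytoskeletal regulator, stood at 34.7 and 35.7 against 61.9 and 168 CPM, and the signalling receptor gene S1pr3 at 6.93 and 15.9 against 72.2 and 52.0 CPM. Zfp821, H1fx and Selenop were the other named genes on the higher side, and Nxpe2, Gimap4, Hivep3 and Dennd4b on the lower.

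At matched depth the IgG share was lower in low-cycling cells of both libraries, by unlike amounts. Of cells with enough heavy chain UMIs to be called IgG or IgM, 66.0% of 47 low-cycling and 68.9% of 61 cycling cells were IgG in library 1, and 54.8% of 42 and 77.3% of 44 in library 2. The difference was −12.7 ± 13.9 percentage points (SD, n = 2). An exact permutation test with 2 libraries a class cannot pass a threshold of 0.05, so no separation by antibody class could be tested. Without matching the shares were 64.2% against 60.7% in library 1 and 52.2% against 64.2% in library 2. Cells with enough UMIs but of neither class were left out. They were 14 of 61 low-cycling and 7 of 68 cycling cells in library 1, and 5 of 47 and 10 of 54 in library 2.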

How the data were processed

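Droplet 3′ RNA sequencing of sorted germinal center B cells gave 2 libraries, and the authors deposited raw UMI counts per gene and barcode for 30905 genes. Per the file headers these come from Cell Ranger 3.0.2, and the submitters' processing notes name mm10 as the build. Settings of cell calling and of reads shared between genes are not given in the sources used here. The class limits, members and gene lists were chosen with earlier results of these data known.

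Within each library, low-cycling and cycling cells were drawn in equal numbers from bins of 0.25 log2 UMIs, and their counts were summed per library and class, because cells are not replicates. The 4 sums held 252408 to 298695 UMIs. The 9 gate genes were left out of the test. Sums were compared with edgeR 4.0.16 (R 4.3.3; quasi-likelihood test, TMM scaling, filterByExpr, library as a block, Benjamini-Hochberg adjustment over all tested genes, threshold 0.05), with DESeq2 1.42.0 as an alternative. The script was tested on simulated data. Both classes come from the same library, which is why the library is a block. Scrublet in scanpy 1.11.5 called 0 doublets and so did not work here, and an alternative left out the highest 6% of its scores. CPM is the count over all UMIs of the sum, scaled as usual. Gene coordinates are GENCODE M21 on mm10.

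Named genes are the 15 largest log2 differences in each direction (8 in the zone comparisons) among genes past the threshold with the same sign in both libraries and at least 50 CPM in the higher class, without immunoglobulin genes, symbols of Gm and a digit, and Rik symbols, plus list members, Cd2 and Ypel3. IgG or IgM cells had at least 5 heavy chain UMIs, 80% of them of that class. The alternatives were other scalings, filters, draws, gates and limits. A mitochondrial limit of 20% and 3 cycling cells per low-cycling cell were added after seeing the data. Some list members are not reported here.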

Additional observations from a re-analysis of the deposited data

How the results depend on the processing

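The low-cycling against cycling comparison gave 472 genes by edgeR. It gave 266 with no replicate block (the library number as the pairing), 92 with DESeq2, 262 with at least 50 counts in 2 sums, 2233 without depth matching, 255 with cells thinned to 2000 UMIs, 258 with a cycle sum of 0 against at least 10, 260 at 4000 UMIs or more, 293 with germinal center marker limits and 303 at a mitochondrial limit of 20%. It gave 5 at 2 or more Cxcr4 UMIs (19 and 23 cells a class) and 7 at a mitochondrial limit of 10% (2 cells a class and library), where few genes could be tested. Without the block 78 of the 266 were higher. The interaction gave 0 genes and 11 without matching. The comparison of low-cycling cells between gates gave 101 genes, 31 with no replicate block, 17 with DESeq2, 504 without matching and 0 at the 10% limit. In each comparison the block was the library, and all 266 and 31 genes without it were among those with it. With 1 library a comparison has no residual, so single-library fits gave differences only.

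Directions turned for Atp6v0e (−0.33) and Rala (−0.0035) without depth matching and for Selenop (−0.033) with a cycle sum of 0 against at least 10, and the cause was not tested. The mitochondrial share, −1.03 ± 0.37 percentage points (SD, n = 2) at matched depth, was 1.63 without matching and 1.38 at the 10% limit. Libraries 1 and 2 alone gave −1.29 and −0.764 points, and −2.90 and −22.5 points for the IgG share. Of the 29 named genes other than Cd2 and Ypel3, 18 lost their call with DESeq2 and 7 in another draw of cells.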
